A study of Mus musculus with 9 samples.

Results

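The genes examined encode the subunits, helpers and regulators of the constitutive proteasome, measured with 1 Affymetrix array per sample in 6 alveolar rhabdomyosarcomas of the mouse and in 3 samples of skeletal muscle from wild-type animals. They were taken by name, as every gene whose platform symbol begins with Psma, Psmb, Psmc, Psmd, Psme, Psmf or Psmg, leaving out the interferon-inducible Psmb8, Psmb9, Psmb10, Psme1 and Psme2. This gave 44 of the 12393 genes on the array, read by 81 probe sets, and for each gene the probe set of highest mean log2 signal over the 9 arrays was used. Among the 44, 42 have a known proteasome role. Psmc3ip, which encodes a recombination factor of meiosis, and Psme3ip1, which encodes a protein that binds the Psme3 product, match by their symbols only. Psma8 encodes the alpha subunit of the testis proteasome, so it belongs to the name family but not to the constitutive particle.

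Alveolar rhabdomyosarcoma is a soft-tissue cancer with skeletal muscle features. The tumour group is described by disease state and the control group as wild-type skeletal muscle. The labels used here name no tumour genotype, strain, age, sex, treatment or particular muscle. They also do not say whether different animals were sampled, so p-values measure the spread between these arrays, which may be technical. Signals are linear MAS5 intensities in arbitrary units, multiplied here so that all arrays share 1 trimmed mean, and levels of different probe sets are not compared.

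The proteasome is the barrel-shaped protease that degrades proteins tagged with ubiquitin. Its 20S core stacks rings of alpha subunits, which gate the entrance, around rings of beta subunits, which hold the cutting sites. The 19S cap consists of a ring of ATPases that unfold the substrate and a set of non-ATPase subunits that bind and remove ubiquitin, and dedicated chaperones put both parts together. In skeletal muscle the ubiquitin-proteasome pathway carries much of the breakdown of contractile proteins during atrophy, and dividing cells use it to remove cyclins.

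Proteasome genes as a family did not differ between tumours and muscles more often than other genes. With limma and a Benjamini-Hochberg adjusted p below 0.05 over all genes, 5 of the 44 were higher in tumours, 1 was lower and 38 were not called. The share called was 13.6%, against 17.8% of all genes (8.66% higher and 9.09% lower). It was 26.5% among genes at least as bright as the median gene, as 41 of the 44 members were. The median log2 difference, tumour minus muscle, was 0.03 for the 44 genes and 0.10 for all genes. The members higher in tumours were the core subunit genes Psma5 and Psmb2, the chaperone genes Psmd5 and Psmg4, and Psmc3ip, while Psme4, which encodes the activator PA200, was lower. None of the 17 genes of the 19S cap was called in this fit, and whether the groups of subunits differ in this was not tested. Without rescaling 2 muscle arrays that were deposited on another scale, 8 members were higher and none was lower, but the median of all genes then moved to 0.79. The count of members higher was 3 without muscle 1, 2 without muscle 2 and 2 without muscle 3. The count lower was 2 without tumour 1 or without tumour 2, and 0 without muscle 3.

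**Figure D1:**
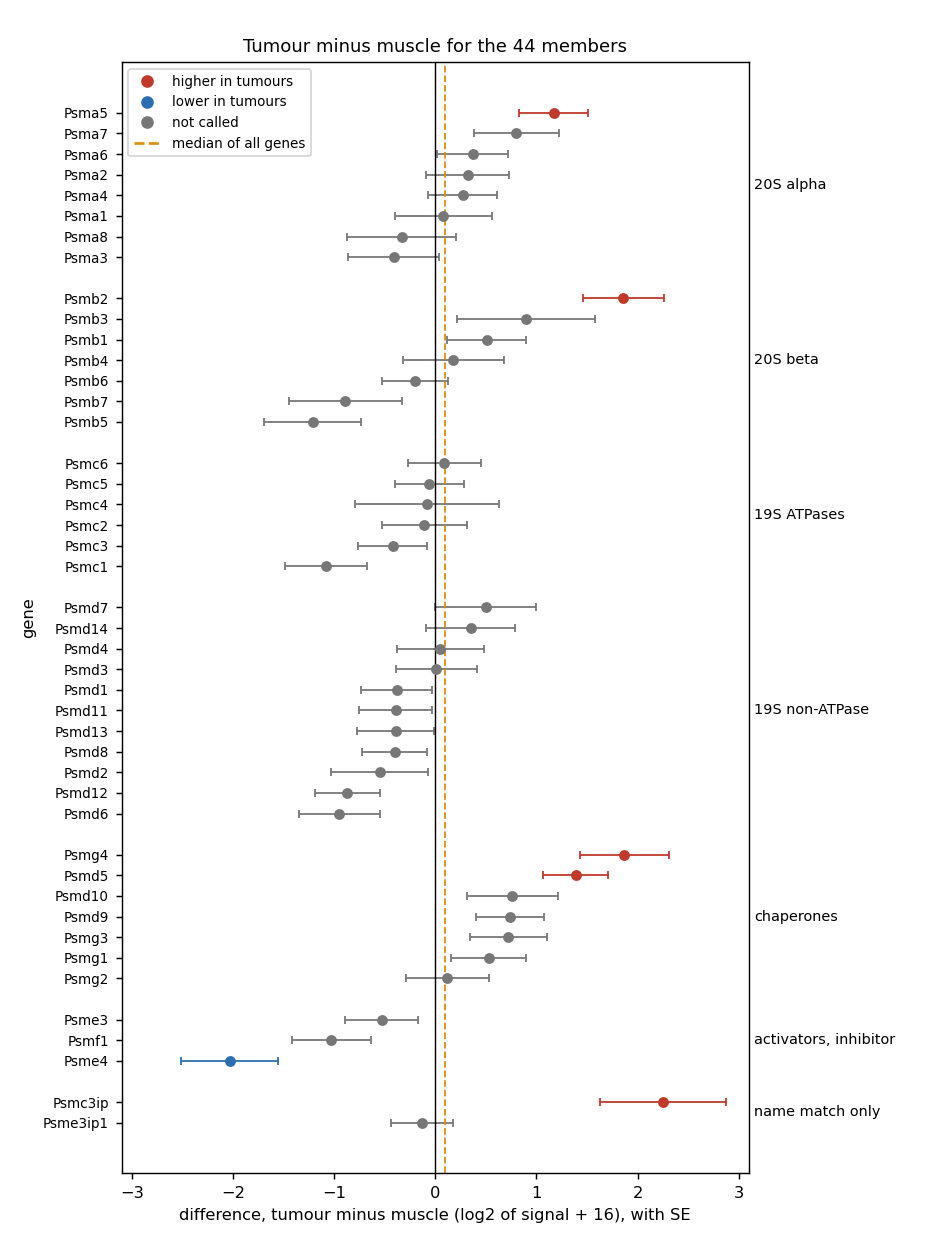
Difference between tumours and muscles for each of the 44 genes (x axis, tumour minus muscle on the scale of log2(signal + 16); bars are the standard error of the limma fit), ordered by role in the particle. The genes called higher lie between 1.17 and 2.25, Psme4 lies at -2.03, and the 19S genes lie between -1.08 and 0.50 with none called; the dashed line is the median of all genes, 0.10.

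The arrays themselves differed in ways that bear on these values. As deposited, the trimmed mean signal was 500.2 on 7 arrays, 294.3 on muscle 1 and 140.9 on muscle 3, and the last 2 were multiplied by 1.699 and 3.549. The hybridisation control cre read 32500 on tumour 1 and 26648 on tumour 4, against 5345 to 13348 on the other arrays. Another spiked control, dap, separated the groups, at 116 to 950 on the tumours and 2316 to 5844 on the muscles, and the part of this technical difference in the results below was not tested. For Gapdh, 3' over 5' signal, a measure of RNA integrity, reached 57.17 in muscle 2 and 33.0 in muscle 3. It was 1.68 in muscle 1 and ranged from 1.93 to 9.39 among tumours. The same ratio for Actb did not set these muscles apart, at 1.87, 4.06 and 4.35 in muscles 1 to 3 and 3.35 to 6.78 in tumours. The labelled tissues were checked against fixed markers. Of 10 adult muscle genes 9 were lower in tumours, with a summed signal of 2114 to 142510 in tumours and 203265 to 281835 in muscles; the highest tumour sum was that of tumour 1. Of 10 macrophage genes 9 were higher in tumours (summed signal 11971 to 48099 against 4394 to 5431), and 9 of 9 proliferation genes were higher (17930 to 40623 against 1629 to 3748). Of 4 adipocyte genes 3 were lower (243 to 1669 against 8218 to 10606). Of 9 genes of T and NK cells 1 was higher, of 7 fibroblast genes 1 was lower and of 6 endothelial genes 1 was lower. The tumour and muscle sums of these lists were 904 to 1838 against 644 to 1223, 10224 to 59801 against 31908 to 37860, and 774 to 2061 against 2500 to 2955. Of 7 genes of the myogenic lineage 1 was higher and 1 lower, with sums of 4421 to 11131 and 3708 to 6585. In whole tissue, fewer cells of a type and less RNA per cell cannot be told apart, and the part of this cell mixture in the differences below was not tested.

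Promoter windows were read to show the sequence next to the genes that moved. RefSeq windows of 300 bases, of which 250 lie before the gene's start, were held for 36 of the 44 members in build GRCm38.p6. They were searched on both strands for the core of the antioxidant response element, TGACNNNGC, which binds the Nrf family that is known to induce proteasome genes, and for the CCAAT box, CCAAT. The first motif was found in 6 of the 36 members (16.7%), Psmb5, Psmb6, Psmc6, Psmd9, Psmd12 and Psme4, against 14.0% of all genes in the table. The second was found in 14 of 36 (38.9%), against 41.1% of all genes. The log2 differences of the 6 genes with the first motif ran from -2.03 for Psme4 over -1.21, -0.87, -0.20 and 0.09 for Psmb5, Psmd12, Psmb6 and Psmc6 to 0.74 for Psmd9, so both signs occurred. The first 270 bases of the windows of Psme4 (chr11:30771525-30771794, plus strand), Psma5 (chr3:108256676-108256945, plus strand), Psmd5 (chr2:34870943-34871212, minus strand) and Psmg4 (chr13:34162714-34162983, plus strand) follow, 5′ to 3′. Capitals mark a match to TGACNNNGC on either strand. The lower gene Psme4 holds 1 such match near the start site, and the windows of Psma5, Psmd5 and Psmg4, which were higher, hold neither motif. Of the other higher genes, Psmc3ip holds 1 CCAAT box and none of the first motif, and Psmb2 had no window in the table.
Psme4: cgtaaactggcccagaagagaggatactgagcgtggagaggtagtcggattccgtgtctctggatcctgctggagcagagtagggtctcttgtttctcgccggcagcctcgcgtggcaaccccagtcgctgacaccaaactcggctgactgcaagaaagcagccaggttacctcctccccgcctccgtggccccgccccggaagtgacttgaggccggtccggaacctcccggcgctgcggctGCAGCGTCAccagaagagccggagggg
Psma5: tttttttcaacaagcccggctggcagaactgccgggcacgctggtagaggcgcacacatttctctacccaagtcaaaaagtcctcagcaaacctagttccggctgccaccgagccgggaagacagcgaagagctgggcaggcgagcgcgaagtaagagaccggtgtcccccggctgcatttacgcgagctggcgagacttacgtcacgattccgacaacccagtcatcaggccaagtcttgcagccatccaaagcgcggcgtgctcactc
Psmd5: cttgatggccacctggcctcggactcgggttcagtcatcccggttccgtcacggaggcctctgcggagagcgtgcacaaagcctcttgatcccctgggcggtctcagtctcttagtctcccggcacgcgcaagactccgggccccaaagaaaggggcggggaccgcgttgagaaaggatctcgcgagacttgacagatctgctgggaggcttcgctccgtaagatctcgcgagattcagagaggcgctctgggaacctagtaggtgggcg
Psmg4: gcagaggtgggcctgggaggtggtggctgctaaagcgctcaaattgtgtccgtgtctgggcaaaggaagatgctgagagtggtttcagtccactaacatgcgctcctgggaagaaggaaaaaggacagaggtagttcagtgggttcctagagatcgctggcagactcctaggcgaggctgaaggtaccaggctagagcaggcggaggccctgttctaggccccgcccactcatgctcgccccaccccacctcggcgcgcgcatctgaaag

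Of the 8 genes of the alpha ring, 1 was higher and 7 were not called, with a median log2 difference of 0.29. The share called was 12.5%, against 17.8% of all genes. Psma5, which encodes the subunit alpha 5, had tumour signals from 4260 over a median of 5599 to 9203, and 2695, 2540 and 2250 in muscles 1 to 3. Every tumour lay above every muscle. The means were 5811 ± 1808 (SD, n = 6) and 2495 ± 226 (SD, n = 3), a 2.25-fold rise on the offset scale with an adjusted p of 0.03. Tested on its own, another of its probe sets also rose, by 1.02 ± 0.33 (log2 ± SE), while the remaining one differed by -0.35 and was not called. This call was the least stable of the 6. It was lost without tumour 3 (adjusted p = 0.051), tumour 5 (0.059), muscle 1 (0.081), muscle 2 (0.11) or muscle 3 (0.15), with median centring (0.068), as the mean of its probe sets (0.14) and on tumours 1 to 3 with the 3 muscles, with the replicate number as a block (0.22) or without it (0.19), in a range of 0.0087 to 0.22 over 20 alternatives.

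The other alpha genes differed by -0.41 to 0.80, and all their adjusted p were at or above 0.23. Psma7 had tumour signals from 1054 to 3469 and muscle signals of 1396, 740 and 725, with tumour 4 the highest of all arrays. Psma6 had groups that did not overlap (6219 to 10116 in tumours, 5955 to 6184 in muscles), but the difference was only 0.37 ± 0.35 and its other 3 probe sets had differences below 0. Across all 12393 genes, 21.6% had groups that did not overlap (10.7% higher and 11.0% lower), and 6 of the 44 members did so on the high side and 4 on the low side. Psma8, the testis form, read 9 to 86 in tumours and 47, 17 and 83 in muscles; the groups overlapped and the gene was not called.

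Of the 7 beta ring genes, 1 was higher and 6 were not called. This share of 14.3% compares with 17.8% of all genes and 26.5% of genes at least as bright as the median gene. Psmb2, which encodes a structural beta subunit, had tumour signals from 1239 over a median of 2009 to 3065, and 1018, 418 and 343 in muscles 1 to 3. The groups did not overlap, though muscle 1 came close to tumour 2. The rise was 3.64-fold (1.86 ± 0.40, log2 ± SE; adjusted p = 0.0051), the largest of the core genes. The call was lost without muscle 3 (0.053), in a range of 0.00041 to 0.054 over 20 alternatives. On tumours 1 to 3 with the 3 muscles it was lost without the replicate number as a block (0.054) but kept with it. The structural genes Psmb1, Psmb3 and Psmb4 differed by 0.51 ± 0.39, 0.90 ± 0.68 and 0.18 ± 0.50 and were not called. A second probe set of Psmb3 read 985 to 1864 in tumours and 945, 938 and 887 in muscles, without overlap. It differed by 0.65 ± 0.31, and a second probe set of Psmb4 by 0.45 ± 0.33. Other probe sets of Psmb1 differed by -0.33 ± 0.58 and 0.18 ± 0.46. None of these was called when each probe set was tested on its own.

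The genes of the cutting sites were not called, and their 3 differences lay below 0. Psmb5, of the chymotrypsin-like site, had tumour signals from 1257 over a median of 3619 to 5878, and 6005, 6863 and 7999 in the muscles. Every tumour lay below every muscle, with tumour 5 just under muscle 1. The difference was -1.21 ± 0.48, with a 95% interval of -2.23 to -0.19, and the adjusted p over all genes was 0.099. Psmb7, of the trypsin-like site, had tumour signals from 1149 over a median of 5762 to 10645, and 7478, 8187 and 11743 in the muscles. Tumour 1 was far below the rest and tumour 2 lay among the muscles, so the interval of the difference (-0.89) ran from -2.10 to 0.32. Psmb6, of the caspase-like site, had tumour signals from 2312 over a median of 3255 to 4867, and 4878, 3483 and 3237 in the muscles. Its groups overlapped and its interval ran from -0.91 to 0.52. Without the rescaling of 2 muscle arrays Psmb6 differed by 0.66, and Psmb5 and Psmb7 by -0.35 and -0.02, with none called.

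Each of these genes has an inducible counterpart that replaces it in the immunoproteasome of cells exposed to interferon. Psmb8, the counterpart of Psmb5, read 616 to 4028 in tumours (median 1407) and 135, 110 and 119 in muscles. Psmb9, that of Psmb6, read 456 to 2383 (median 866) and 165, 96 and 149. Psmb10, that of Psmb7, read 626 to 3845 (median 1344) and 296, 216 and 218. All 3 were higher, by 3.32 ± 0.48, 2.62 ± 0.47 and 2.37 ± 0.47 (adjusted p = 0.00038, 0.0017 and 0.0034). The change of the log2 ratio of the inducible to the constitutive probe set was tested for the 3 pairs, since a ratio within an array hardly depends on how the array was scaled. From muscle to tumour the ratio of Psmb8 to Psmb5 rose by 4.53, that of Psmb10 to Psmb7 by 3.25 and that of Psmb9 to Psmb6 by 2.82. In each pair all 6 tumours lay above all 3 muscles. The two-sided exact permutation p was 0.0238 for each pair, the smallest that 6 against 3 arrays can give, and 0.0238 after Benjamini-Hochberg adjustment over the 3. Complete separation of the arrays fixes this p, so it adds no support beyond the separation itself. Such a ratio shows unequal change of the pair, not that either gene stayed constant. Macrophage markers were higher on the same tumour arrays, as given above, and their part in this shift was not tested.

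**Figure D2:**
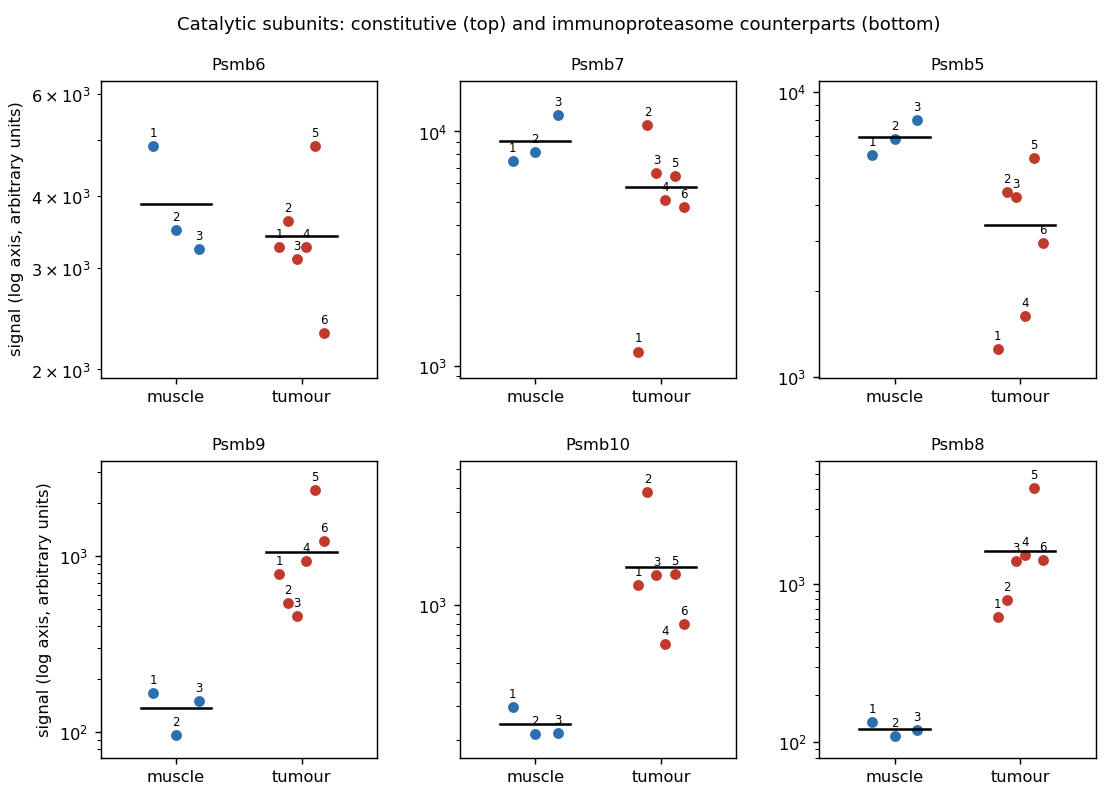
Signals of the constitutive catalytic subunit genes (top row) and of their immunoproteasome counterparts (bottom row, same column) on each array; the y axis is the signal in arbitrary units on a log axis, points are arrays with their replicate number and bars are group means. Tumours overlap muscles for Psmb6 and Psmb7 and lie below them for Psmb5, from 1257 to 5878 against 6005 to 7999, whereas all 6 tumours lie above all 3 muscles for Psmb9, Psmb10 and Psmb8.

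In the 19S cap, 0 of the 17 genes were called by limma. At an unadjusted p below 0.05, 0 lay on the high side and 3 on the low side, Psmc1, Psmd6 and Psmd12. That is 17.6% of the 17, against 29.1% of all genes at the same unadjusted threshold. The 6 ATPase genes Psmc1 to Psmc6 had a median difference of -0.10, with 5 below 0, but this turned to 0.76 with 5 above 0 without the rescaling of 2 muscle arrays. Psmc1 came nearest to a call, with tumour signals from 356 to 1081, muscle signals of 1961, 1078 and 1698 and a difference of -1.08 ± 0.41 (adjusted p = 0.092, and 0.071 to 0.77 over 20 alternatives). The intervals of Psmc2, Psmc3 and Psmc5 stayed within -1.14 and 0.79. On the probe set used, Psmc4 varied most of all members among the tumours, with an SD of 1.53 on the log2 scale. It read 318 in tumour 2 and 6054 in tumour 1, and the difference was -0.08 ± 0.71. A second probe set of Psmc4 did not share this spread, at 649 in tumour 1 and 700 in tumour 2. On it every tumour lay below every muscle, narrowly, with 1016 in tumour 4 against 1036, 1201 and 1140 in the muscles. Tested on its own it differed by -0.83 ± 0.34 and was not called (adjusted p = 0.13), so the level of Psmc4 is uncertain too.

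Psmc6 is uncertain because its probe sets disagreed. The probe set used read 1066 to 3206 in tumours and 1813, 2050 and 2314 in muscles, a difference of 0.09 ± 0.36. A second probe set read 189, 1632, 990, 444, 719 and 1457 in tumours 1 to 6 and 2392, 3769 and 3064 in the muscles, and the remaining one 4 to 123 and 220, 500 and 187. On both, every tumour lay below every muscle. Both were lower when each probe set was tested on its own, by -2.03 ± 0.55 and -2.02 ± 0.61 (adjusted p = 0.023 and 0.037), in a test that called 15.4% of all probe sets. As the mean of its probe sets the gene differed by -1.32 (adjusted p = 0.07).

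Of the 11 non-ATPase genes of the cap, 7 had differences below 0 and 4 above, with a median of -0.39 that turned to 0.47 without the rescaling. Psmd12, a scaffold subunit of the lid, had tumour signals from 1041 over 1268 to 1702 and muscle signals of 3299, 1766 and 2368. All tumours lay below all muscles, by a narrow margin between tumour 3 and muscle 2, and the difference of -0.87 ± 0.32 was not called (adjusted p = 0.077). Psmd6, another lid subunit, differed by -0.95 ± 0.40 (adjusted p = 0.13) and was called lower only without tumour 2 (adjusted p = 0.029, over alternatives up to 0.91), whose signal of 4165 lay among the muscles. Its second probe set differed by far less than its SE of 0.68, with 381 on muscle 1 against 7029 and 4886 on muscles 2 and 3. Psmd14, the deubiquitinase that frees substrates from their ubiquitin chain, read 1126 in tumour 1 but 3310 to 4175 in the other tumours, and 3656, 1990 and 1921 in muscles. Psmd4, a ubiquitin receptor, and Psmd2 and Psmd1, the large scaffold subunits, differed by 0.05 ± 0.43, -0.55 ± 0.48 and -0.38 ± 0.35. The others, Psmd3, Psmd7, Psmd8, Psmd11 and Psmd13, lay between -0.40 and 0.50.

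All 7 assembly chaperones had differences above 0, with a median of 0.74, and 2 of the 7 were called higher, 5 not called. The share called, 28.6%, was near the 26.5% of genes at least as bright as the median gene, as all 7 were. Of all genes 17.8% were called. Among all genes 55.6% of differences lay above 0. All 7 also lay above 0 with quantile normalization, with median centring and without rescaling, though without rescaling all 8 alpha ring genes did so too and the median of all genes was 0.79. Psmg2 was the least of them, at 0.12 ± 0.41, and lay on either side of 0 when 1 array was left out (-0.03 without tumour 2). Psmg4, which with Psmg3 helps the alpha ring to form, read 253 to 748 in tumours (median 499) and 185, 139 and 61 in muscles. Every tumour lay above every muscle, and muscle 3 was the lowest array. The rise was 3.64-fold (1.87 ± 0.44; adjusted p = 0.0094), lost without muscle 3 (0.082) and on tumours 1 to 3 with the 3 muscles, with the replicate number as a block (0.059) or without it (0.081), in a range of 0.0018 to 0.082. Psmd5, a chaperone of the 19S ATPase ring, read 735 to 1383 in tumours (median 1115) and 380, 316 and 530 in muscles. The groups stood well apart, and the means were 1096 ± 223 (SD, n = 6) and 409 ± 110 (SD, n = 3). The rise was 2.63-fold (1.39 ± 0.32; adjusted p = 0.0079), lost without muscle 2 (0.064) and on tumours 1 to 3 with the 3 muscles, with the replicate number as a block (0.053) or without it (0.051), in a range of 0.0017 to 0.064.

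The remaining chaperones were not called. Psmd9 read 351 to 603 in tumours and 298, 218 and 255 in muscles, apart from each other but with a difference of 0.74 ± 0.34 (adjusted p = 0.17). Its second probe set differed by -0.48. Psmg3 differed by 0.72 ± 0.38 and Psmg1, which forms a pair with the Psmg2 product, by 0.53 ± 0.37. Psmd10, also known as the oncoprotein gankyrin, differed by 0.76 ± 0.45 and was highest in tumour 2, at 732 against 199 to 371 in the other tumours. Psmd9 and Psmg3 were called only without the rescaling (adjusted p = 0.044 and 0.049, in ranges up to 0.85 and 0.48).

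**Figure D3:**
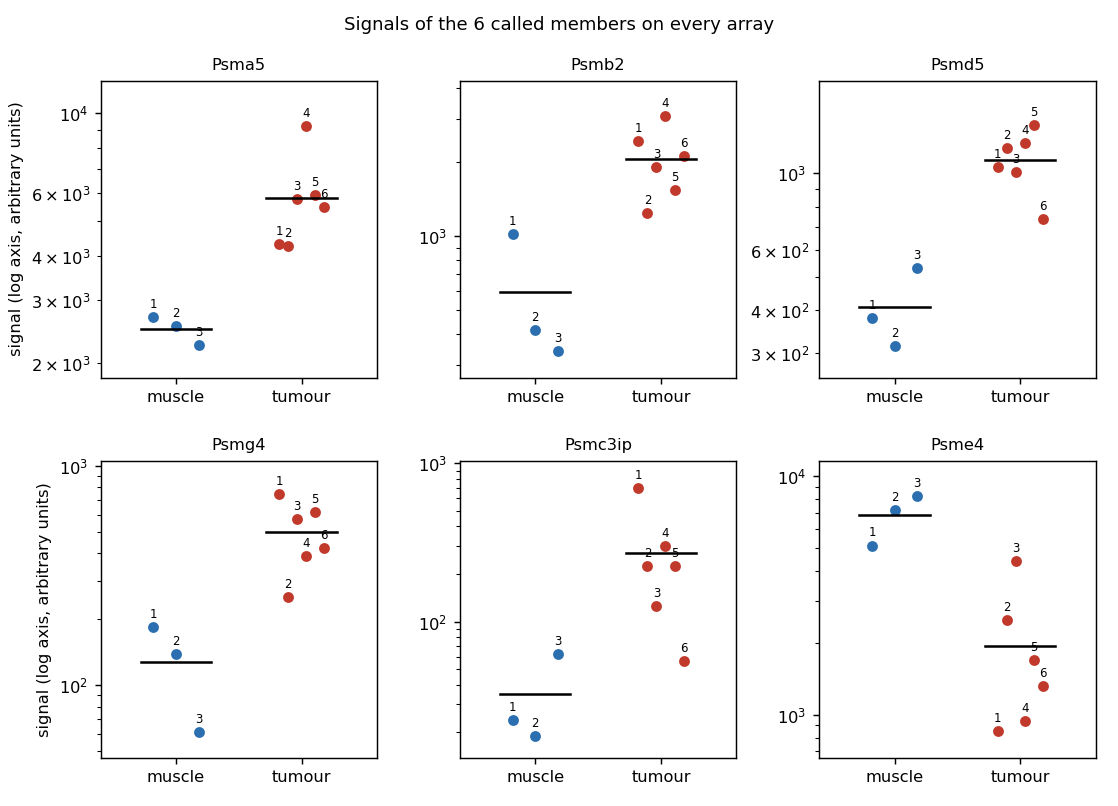
Signals of the 6 called members on each array (y axis, arbitrary units, log axis; points are arrays with their replicate number, bars are group means). All tumours lie above all muscles for Psma5, Psmb2, Psmd5 and Psmg4 and below them for Psme4, while tumour 6 of Psmc3ip (56) falls below muscle 3 (62).

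Psme4 was the one member lower in tumours. It encodes PA200, a large ATP-independent cap that opens the 20S core and is known for the degradation of acetylated histones. Its signals were 850 to 4389 in tumours (median 1503) and 5121, 7228 and 8295 in muscles. Every tumour lay below every muscle, with tumour 3 the nearest to them and tumours 1 and 4 the lowest. The means were 1945 ± 1338 (SD, n = 6) and 6881 ± 1615 (SD, n = 3), a 4.08-fold fall (-2.03 ± 0.48; adjusted p = 0.0093). Its 3 probe sets were each lower, by -2.03 ± 0.47, -2.20 ± 0.57 and -2.49 ± 0.46. The call was lost without muscle 3 (0.062) and without the rescaling, where the difference was -1.17 (0.14), in a range of 0.0022 to 0.14. On tumours 1 to 3 with the 3 muscles it was lost without the replicate block (0.12) but kept with it. Of the 10 adult muscle markers 9 were lower in tumours. Tumour 1, with the lowest Psme4 signal (850), had the highest sum of these markers among tumours, 142510, against 203265 to 281835 in muscles. The part of these markers in the fall of Psme4 was not tested.

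The other regulators were not called. Psme3, which encodes the nuclear activator PA28 gamma, read 321 to 728 in tumours and 816, 544 and 521 in muscles (-0.53 ± 0.36). Psmf1, which encodes the inhibitor PI31, read 94 to 214 in tumours and 351, 271 and 415 in muscles, with no overlap and a difference of -1.03 ± 0.39 (adjusted p = 0.091). It was called lower with quantile normalization (0.034), with median centring (0.031) and without tumour 1 (0.0498), in a range up to 0.96. Its other 3 probe sets did not bear out a direction, at 0.83, -0.20 and 0.58, and the mean of the 4 differed by 0.04. Psmc3ip, the recombination factor gene that shares only its name with the family, read 56 to 695 in tumours (median 225) and 24, 19 and 62 in muscles. It had the largest rise of the 44 (2.25 ± 0.62; adjusted p = 0.022), at low signals where the offset counts, and lost its call without muscle 1 (0.088) or muscle 2 (0.11), in a range of 0.0011 to 0.11. The proliferation markers rose on the same arrays, and their part was not tested. Psme3ip1 read 469 to 765 in tumours and 587, 669 and 854 in muscles, a difference of -0.13 ± 0.31.

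**Figure D4:**
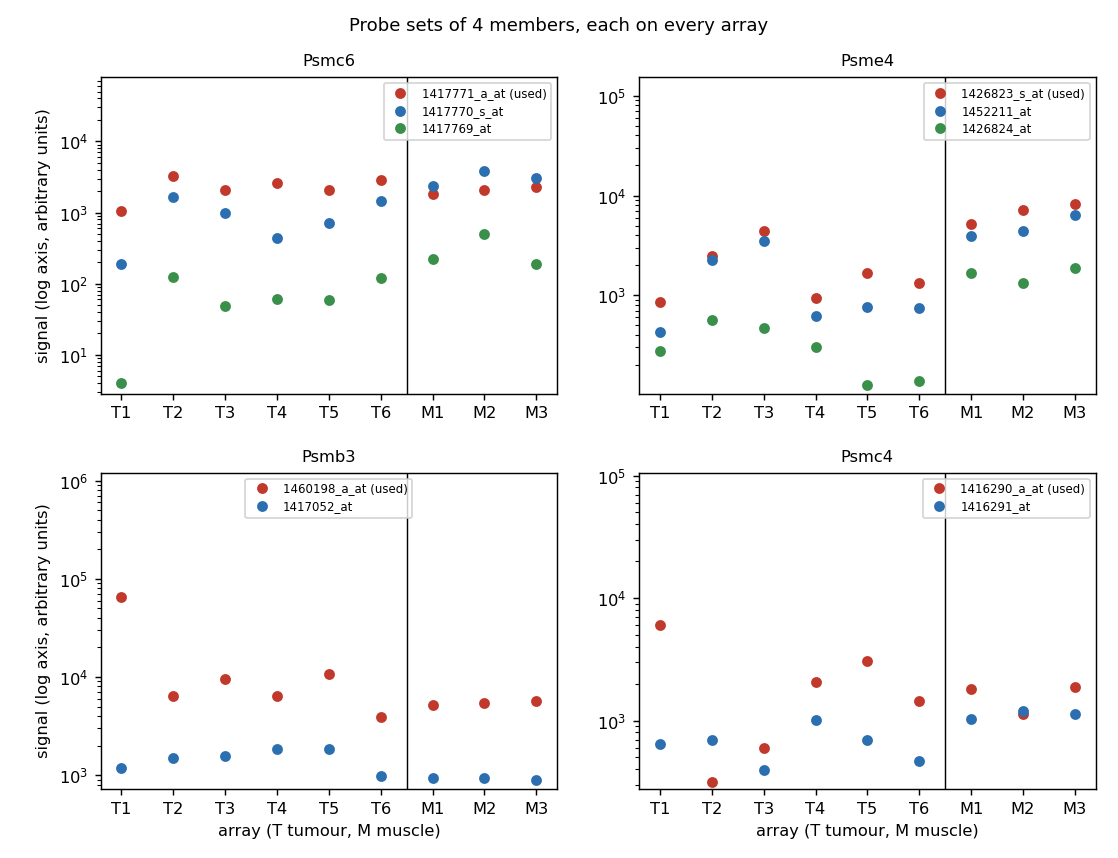
Signals of every probe set of Psmc6, Psme4, Psmb3 and Psmc4 on each array (y axis, arbitrary units, log axis; x axis, tumours T1 to T6 and muscles M1 to M3; colours are probe sets, with the one used marked). The probe sets of Psme4 fall together in tumours, those of Psmc6 do not, and the high signals of tumour 1 for Psmb3 (64719) and Psmc4 (6054) appear on 1 of the gene's 2 probe sets.

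The spread among tumours was described per gene. The median SD of the 44 genes was 0.61 among tumours and 0.33 among muscles on the log2 scale, close to 0.70 and 0.36 for all genes. The median distance of the members from the muscle mean was -0.23 in tumour 1, 0.24 in tumour 2, 0.15 in tumour 3, 0.07 in tumour 4, 0.06 in tumour 5 and -0.06 in tumour 6. Tumour 1 stood apart. It had the lowest tumour signal for 17 of the 44 genes (38.6%, against 20.1% of all genes) and the highest for 8 (18.2%, against 37.6% of all genes). Tumour 2, which was lowest for 39.2% of all genes, was lowest for 20.5% of the members and highest for 22.7%. These shares describe the arrays and were not tested.

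Members that lay low in tumour 1 included genes of every part of the particle. Psmb7 read 1149 there and 4768 to 10645 in the other tumours, Psma3 2758 against 7692 to 9879, Psmb4 1594 against 6326 to 8540, and Psmd2 955 against 2425 to 5421. Against this, Psmb3 read 64719 in tumour 1 and 3934 to 10702 in the others. A second probe set of Psmb3 read 1179 in tumour 1, within the 985 to 1864 of the other tumours. A second probe set of Psmc4 likewise read 649, within the range of the other tumours, where the probe set used read 6054. A second probe set of Psmb4 read 2530 in tumour 1, within 1865 to 3909, so its low value was not shared either. The hybridisation control cre was also highest on tumour 1, and its part in these values was not tested. Without tumour 1, 5 members were higher and 2 lower, and the median difference was 0.02.

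**Figure D5:**
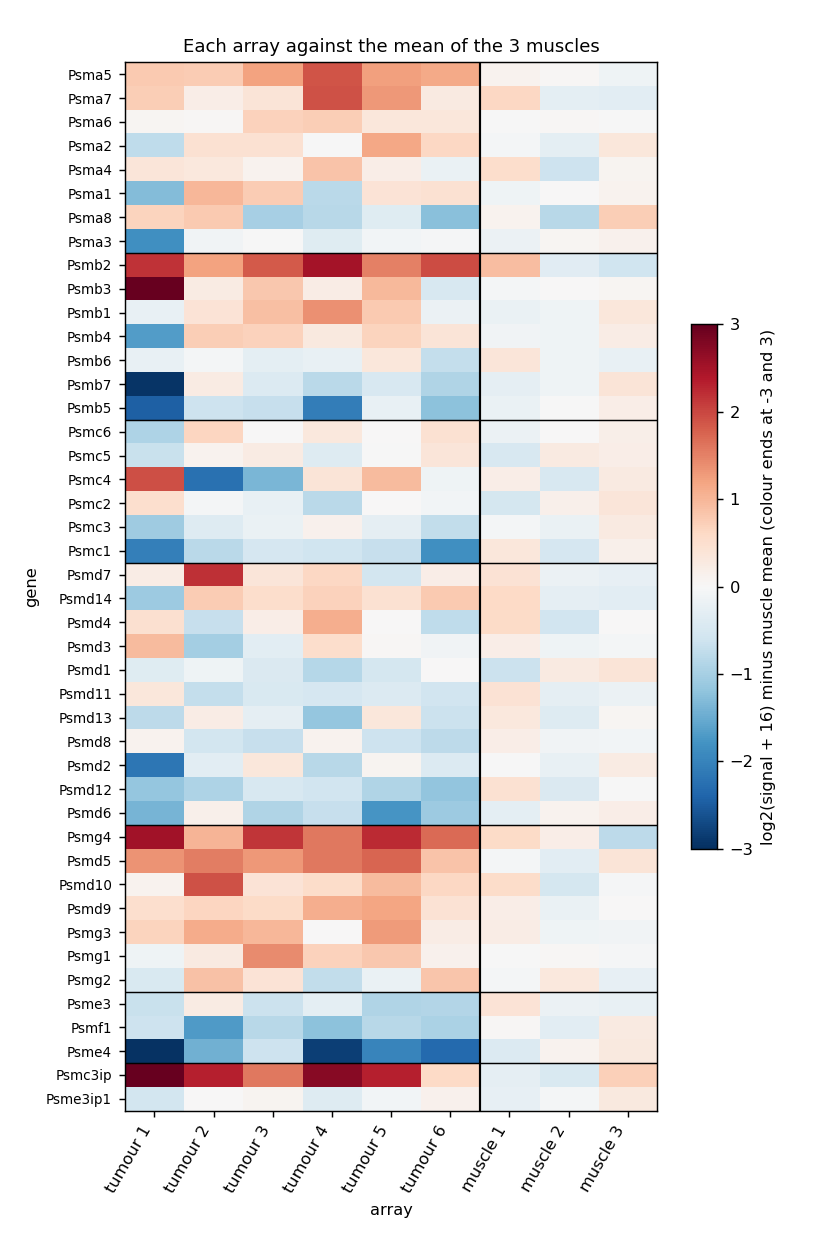
Log2(signal + 16) of each of the 44 genes on each array minus the mean of the 3 muscles (colour, with red above and blue below; the scale ends at -3 and 3), with genes grouped by role. Tumour 1 holds both the darkest blue cells (Psme4 and Psmb7) and the darkest red (Psmc3ip and Psmb3), the chaperone rows are mostly red, and the muscle columns stay within 1 unit.

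Partners of the proteasome that the name rule does not reach were taken from a list of 38 symbols, of which 26 were measured. Some of the 38 are older names of genes that are also listed under their current names. Of these 1 was higher, 3 were lower and 22 were not called, with a median difference of 0.00. The share called, 15.4%, was near the 17.8% of all genes. All 26 were at least as bright as the median gene, and of such genes 26.5% were called. Ecpas, which encodes the proteasome adaptor Ecm29, read 87 to 1083 in tumours (median 280) and 712, 1751 and 1724 in muscles, a fall of 4.31-fold (adjusted p = 0.022) with overlapping groups. Ngly1, the glycanase that processes the transcription factor Nfe2l1, read 480 to 1303 in tumours and 1701, 2667 and 2972 in muscles, without overlap (-1.40 ± 0.39; adjusted p = 0.024). Zfand5, a zinc finger protein that stimulates the proteasome, read 525 to 5725 in tumours and 5493, 9336 and 9233 in muscles (-1.91 ± 0.62; adjusted p = 0.048). Hspa5, the chaperone of the endoplasmic reticulum, was higher (1.47 ± 0.47; adjusted p = 0.046). It read 2848 to 12313 in tumours and 4049, 2437 and 1872 in muscles, with overlapping groups. The calls of partners were not followed through the alternative settings used for the members. Nfe2l1 itself, which drives proteasome gene expression when proteasomes fail, differed by -0.81 ± 0.39 and was not called, and the core chaperone gene Pomp differed by 1.03 ± 0.45 (adjusted p = 0.14); both were picked for their roles after their values were seen. Of the genes left out as inducible, 4 were measured and all 4 were higher, including the activator gene Psme1 at 1.53 ± 0.33 (adjusted p = 0.0057).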

How the data were processed

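RNA from 6 tumours and 3 muscles was hybridised to Affymetrix arrays, per the labels. The deposited values are linear signal intensities, 1 per probe set and array, made with MAS5 (no version given), per the submitters' processing notes; the scaling target is not given in the sources used here. Every array was multiplied here to the median of the trimmed means (2% at each end), since 2 muscle arrays lay on another scale. The arrays hold 22690 probe sets, including 64 controls that stayed out of the tests. The platform annotation gives 20380 probe sets a single symbol (1 gene), 691 several and 1555 none, and only the first kind was named. Gene identifiers of 20351 matched a mouse gene table of GRCm38.p6, used for names only, and 0 symbols changed.

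After adding 16 and taking log2, differences were fitted by limma (version 3.58.1, lmFit and eBayes with an intensity trend, under R 4.3.3) over all 12393 genes, with Benjamini-Hochberg adjustment and a threshold of 0.05. Folds are on that offset scale and understate changes of dim genes. No filter on low values was used, and 41 of the 44 members were at least as bright as the median gene. Intervals are 95% limits of the fit. Signals set side by side are after scaling. By a written rule every member may be named, and signals are given for called members, the catalytic subunits, Psma8, Psmc3ip, Psme3, Psme4 and Psmf1. For these the text gives the range over the tumours and the signal of each muscle. Array signals of other members, probe sets and partners were added after their values were seen. The members, lists and tests were chosen with earlier results of these data known. The fit was also run on simulated data with independent noise and the same spread in both groups. That run does not cover differences between whole arrays or an unequal spread of tumours and muscles. Promoter windows came from RefSeq. Python 3.11.15, numpy 2.4.6, pandas 2.3.3 and scipy 1.17.1 were used for summaries.

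Arrays that share a replicate number were checked for pairing. Across genes, deviations from the group means correlated at 0.23, 0.18 and -0.02 for numbers 1, 2 and 3. With muscles of another number, tumour 1 correlated at -0.21 and -0.05, tumour 2 at -0.21 and 0.07, and tumour 3 at -0.02 and 0.04. These values do not settle whether the numbers mark pairs. The main fit did not treat them as pairs, and a fit with the number as a block is given beside it.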

Additional observations from a re-analysis of the deposited data

Results flagged for a closer look

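In 6 of the 44 members 1 tumour lay apart from the other 5 by Dixon's test at the 95% level (on log2 values), and in all 6 it was tumour 1. Chance flags about 1 in 20 such groups. The test was not run on all genes, so the 6 flags are not a result about the members. Tumour 1 was the highest tumour for 37.6% of all genes and the lowest for 20.1%. Tumour 1 was the lowest for Psma3 (signal 2758), Psmb4 (1594), Psmb7 (1149) and Psmd14 (1126), and the highest for Psmb3 (64719) and Psmd11 (8591).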

How the results depend on the processing

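The count of members higher in tumours was 5 in the fit described and 4 or 5 with quantile normalization, median centring, offsets of 1 and 64, without genes of below-median brightness, with probe sets averaged per gene, without the intensity trend and without tumours 1 and 4. It was 8 on values as deposited, 2 with a replicate block on tumours 1 to 3 and the 3 muscles and 1 on the same arrays without the block, and between 2 and 5 with any single array left out. The count lower was 1 in the fit described, 2 with quantile normalization and with median centring, 0 on values as deposited, 1 with the replicate block and 0 without it, and between 0 and 2 with any single array left out. The median difference of the members was 0.03, 0.88 on values as deposited, where that of all genes was 0.79, and -0.03 to 0.05 when 1 array was left out. No called difference reversed under any of the 20 alternatives, and 33 of the 38 members not called were not called under any of them. With the replicate block Psma5, Psmd5 and Psmg4 were not called (adjusted p = 0.22, 0.053 and 0.059). Tumours 1 and 2 correlated best with the muscle of their own number, and tumour 3 did not. Since 1 scaling factor per array is fitted to the bulk of genes, a shift common to all genes could not be seen, and the 3 muscle arrays limit the precision.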
